A study of Mus musculus with 23 samples.

Results

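The histone cluster genes are the genes of the mouse histone clusters that encode the linker histone H1 and the core histones H2A, H2B, H3 and H4. They were taken as every symbol in the count table that begins with Hist1h, Hist2h, Hist3h or Hist4h. This gave 70 of 48397 gene symbols, namely 6 H1, 20 H2A, 19 H2B, 12 H3 and 13 H4 genes. By the number in the symbol, 56 belong to cluster 1, 10 to cluster 2, 3 to cluster 3 and 1 to cluster 4. In the GENCODE M21 annotation of GRCm38 (mm10) these lie on chromosomes 13, 3, 11 and 6. Hist1h2al, at chr13:51202727-51203065, lies far from the other Hist1h genes of that chromosome. Hist1h2aj, Hist1h2al and Hist3h2bb-ps are annotated as pseudogenes, so not all 70 encode a histone.

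The genes were described in 23 libraries of polyA RNA from sorted cells of Met1-iRFP breast tumours grown in FVB mice. Met-1 cells come from a mammary tumour of an MMTV-PyMT mouse, and the near-infrared protein iRFP marked them for sorting. There were 7 libraries of iRFP-positive cancer cells from exercised mice and 8 from sedentary mice, and 4 libraries of iRFP-negative cells of the tumour microenvironment (TME) from each of the exercised and sedentary mice. All tumours came from 1 line, and the labels state neither the age of the mice nor whether each library came from a separate animal, so p-values measure only the spread between libraries.

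Most genes of these clusters are transcribed while DNA is replicated, so that new chromatin can be packed as it is made. Their mRNAs are unusual in that they end in a conserved stem-loop, bound by the stem-loop binding protein SLBP and cut with the help of the U7 small nuclear RNP, instead of in a poly(A) tail. Some of the genes also give polyadenylated transcripts that run on past the stem-loop. A polyA library therefore captures the RNA of these genes only in part, and all levels below are levels of captured RNA.

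The stem-loop is shown because it is the feature that sets these mRNAs apart, and because the annotated 3′ end relative to it differed widely between the genes. Genes that end near it and genes that run on past it overlapped in counts and in level per kb. A stem-loop pattern was found by its letters in the annotated transcripts of 46 of the 70 genes. The sequences below are those of the genes the results turn on, read from the GENCODE M21 transcripts 5′ to 3′, with the 16 bases of the stem-loop in capitals and 5 bases on either side.
Hist1h1c: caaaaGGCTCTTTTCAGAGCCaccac
Hist1h2ac: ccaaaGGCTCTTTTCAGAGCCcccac
Hist3h2a: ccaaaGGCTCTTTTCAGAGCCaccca
Hist1h2bf: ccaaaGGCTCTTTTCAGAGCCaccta
Hist1h3g: ttaaaGGCTCTTCTTAGAGCCaccca
Hist1h4i: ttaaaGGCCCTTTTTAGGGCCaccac
Hist1h4j: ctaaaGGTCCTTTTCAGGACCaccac
The letters of the stem differed by histone type. The form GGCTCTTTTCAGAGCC was found in 3 H1, 10 H2A, 8 H2B and 5 H3 genes and in no H4 gene, whereas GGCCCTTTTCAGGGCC was found in 7 H4 genes and in no gene of another type. Hist1h4j, together with Hist1h4b, carried a form found in no other member (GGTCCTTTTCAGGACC), and Hist1h3g a loop found in no other member.

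The stem-loop of Hist1h1c lies at chr13:23739512-23739527 on the plus strand, and its annotated transcript goes on for 840 bases. That of Hist1h4i lies at chr13:22040966-22040981 on the minus strand, with 330 bases after it. In Hist1h2ac the transcript runs on for 2010 bases after the stem-loop at chr13:23683477-23683492 (minus strand), and in Hist3h2a for 1643 bases after the stem-loop at chr11:58955172-58955187 (plus strand). By contrast, Hist1h3g and Hist1h2bf have annotated ends 47 and 29 bases after the stem-loop, at chr13:23535889-23535904 (plus strand) and chr13:23573765-23573780 (minus strand). Hist1h2bc, the gene with the highest count, is annotated with a spliced transcript of 1156 bases over a span of 8710 bases (chr13:23684199-23692908, plus strand), in which the stem-loop pattern was not found.

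Histone cluster genes took up a small part of the counts and were led by few genes. Together they had 134395 of 546457216 counts, or 0.0165% to 0.0392% of the counts of a library. Hist1h2bc, an H2B gene, held 48.56% of them, Hist1h1c, the gene of the linker histone H1.2, held 21.01%, and Hist1h4i, an H4 gene, held 10.28%. These 3 genes made up 79.85% of all histone cluster counts. The next were Hist1h2be, Hist2h2be and Hist1h2bg, all H2B genes, with 2.55%, 1.57% and 1.42%, and Hist1h3g, an H3 gene, with 1.09%. By type, H2B genes held 56.78% of the counts, H1 genes 22.89%, H4 genes 13.51%, H3 genes 4.39% and H2A genes 2.43%.

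The remaining genes were shallow. There were 4 genes with a mean count of at least 100 per library, 34 with at least 10, and 24 that were counted in every library. No count was listed for 6 genes, which are Hist1h2aa, Hist2h2aa1, Hist2h2aa2, Hist2h2bb, Hist2h3b and Hist2h3c1. For a gene whose reads can be placed, 0 of 546457216 counts allows up to 0.00549 CPM (3 counts over all libraries, counting error only). The 5 genes of cluster 2 among them have no 50-base window in the annotated transcriptome that is theirs alone, so a 0 there says nothing of their RNA.

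Per kb of exon, the 3 leading genes stood at 100.6 (Hist1h2bc), 34.8 (Hist1h4i) and 33.8 CPM per kb (Hist1h1c), as means over the 4 groups. The fourth, Hist1h2bf, followed at 5.25 CPM per kb, and Hist1h2bg, Hist1h3g, Hist1h3c, Hist1h2ad, Hist1h4j and Hist1h3i at 5.15, 4.69, 2.64, 2.47, 1.93 and 1.91 CPM per kb. The highest H2A gene was thus Hist1h2ad. Among these genes Hist1h3i, Hist1h2ad, Hist1h2bf, Hist1h3g and Hist1h2bg share much of their sequence with other copies: 12.43%, 32.89%, 34.22%, 45.95% and 50.26% of their 50-base windows were unique, and their levels are uncertain for that reason. The treatment of reads with several matches is not given in the sources used here.

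**Figure D1:**
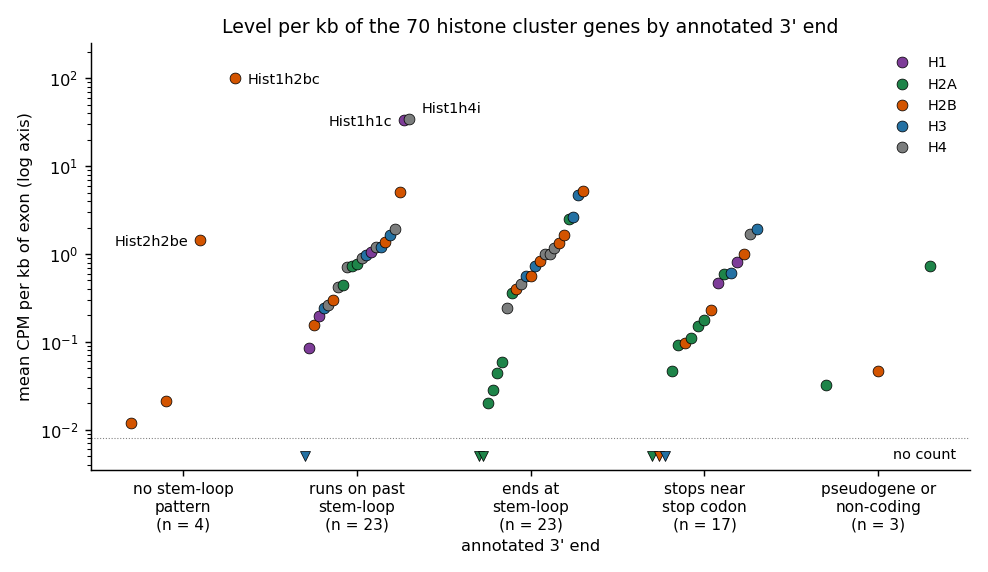
Mean level per kb of exon (CPM per kb, log axis) of each of the 70 genes, grouped by where the annotated transcript ends; each point is a gene, coloured by histone type, and triangles mark genes with no count. Hist1h2bc at 100.6 and Hist1h4i and Hist1h1c at 34.8 and 33.8 CPM per kb lie far above the others, while the classes overlap below.

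Counts differed with the annotated 3′ end. The 23 genes whose transcript runs on for more than 100 bases past the stem-loop had a median of 28.4 counts per library and 42.49% of all histone cluster counts. The 23 genes that end within 100 bases of the stem-loop had a median of 7.30 counts, with 5.76% of the counts, and the 17 genes whose annotation stops near the stop codon a median of 1.65 counts, with 1.48%. The 4 genes annotated with another 3′ end, all H2B genes (Hist1h2bc, Hist1h2bq, Hist1h2br and Hist2h2be), held 50.16%, nearly all of it from Hist1h2bc. The remaining 3 are annotated as pseudogenes and held 0.11%. Per kb of exon the classes lay closer together: the medians were 0.765, 0.570 and 0.179 CPM per kb in the first 3 classes. Longer annotated transcripts and more unique sequence go with the first class, and their part in these counts was not tested.

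Of the 23 genes that run on, 16 carry AATAAA or ATTAAA after the stem-loop. These letters are the usual signal for polyadenylation. The 16 had a median of 0.722 CPM per kb, and the 7 without these letters a median of 1.07 CPM per kb, so the presence of the letters did not go with a higher median. By share the order was the other way. The 16 include Hist1h1c and Hist1h4i and held 38.27% of all histone cluster counts, against 4.23% for the 7. The highest level was 34.8 CPM per kb among the 16 and 5.15 CPM per kb among the 7.

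Many H2A and H2B genes lie head to head and start close to each other. There were 14 such pairs, and in 12 of them the H2B gene had the higher level per kb. Many pairs are shallow: in 7 of the 14 both genes had a mean count under 10 per library, and the H2B gene was higher in 6 of these and in 6 of the other 7. Hist1h2bl and Hist1h2ai, for example, had equal mean counts of 0.913, so their order rests on length alone. The pair of the leading gene had the widest difference in counts, with a mean count of 2837 for Hist1h2bc and 28.9 for Hist1h2ac, whose annotated starts are 250 bases apart. In cluster 2, Hist2h2be had a mean count of 91.8 and Hist2h2ac 0.652.

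Promoter stretches of the 3 leading genes are shown because these genes carry most of the signal. Hist1h2bc had no RefSeq promoter entry, so that of its head-to-head partner Hist1h2ac is shown in its place. Each is the stretch of 250 bases before the RefSeq start (GRCm38.p6), 5′ to 3′ on the strand of the gene named. Capitals mark exact matches, on either strand, to the CCAAT box, the octamer ATTTGCAT known from H2B promoters and the TATA box letters TATAAA. Other forms of the TATA box were not searched.
Hist1h2ac, shared with Hist1h2bc, chr13:23683960-23684209, minus strand: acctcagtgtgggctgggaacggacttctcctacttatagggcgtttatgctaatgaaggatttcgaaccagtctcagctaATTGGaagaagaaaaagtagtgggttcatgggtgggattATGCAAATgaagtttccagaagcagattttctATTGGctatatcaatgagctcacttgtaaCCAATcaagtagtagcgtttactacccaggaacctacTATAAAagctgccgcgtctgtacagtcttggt
Hist1h1c, chr13:23738557-23738806, plus strand: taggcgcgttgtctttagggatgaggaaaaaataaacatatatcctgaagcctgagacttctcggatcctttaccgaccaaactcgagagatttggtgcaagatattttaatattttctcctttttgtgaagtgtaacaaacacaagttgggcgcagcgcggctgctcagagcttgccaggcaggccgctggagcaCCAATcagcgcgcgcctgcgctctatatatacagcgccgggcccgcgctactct
Hist1h4i, chr13:22041363-22041612, minus strand: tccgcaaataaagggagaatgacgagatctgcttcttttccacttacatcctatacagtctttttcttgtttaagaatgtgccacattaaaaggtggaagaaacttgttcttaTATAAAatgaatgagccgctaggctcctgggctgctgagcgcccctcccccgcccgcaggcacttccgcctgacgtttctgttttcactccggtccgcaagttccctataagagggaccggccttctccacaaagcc
The stretch printed for Hist1h2ac, which it shares with Hist1h2bc, held 3 CCAAT boxes, 1 octamer and 1 TATAAA. This TATAAA lies on the strand of Hist1h2ac, 32 bases before the Hist1h2ac start. The promoter of Hist1h1c held 1 CCAAT box and no exact TATAAA. That of Hist1h4i held TATAAA, beginning 137 bases before the start, and neither of the others.

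A RefSeq promoter was matched to 62 of the 70 genes, and windows of 300 bases (250 before to 50 after the start) were searched on both strands. The octamer was found in 38.9% of H2A and 37.5% of H2B promoters, in none of the H1, H3 and H4 promoters, and in 1.75% of 27025 promoters of all genes. CCAAT was found in 100% of the H1, H2A, H2B and H3 promoters and in 25.0% of H4 promoters, against 37.9% of all promoters. TATAAA was found in 56.5% of the histone promoters and in 14.2% of all promoters. Head-to-head pairs share much of these windows, so their matches are not separate.

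Total counts ranged from 15924340 to 37388479 per library. Mitochondrial transcripts made up 42.25% of the counts in sedentary TME library 4 and 14.46% in sedentary TME library 6, against 1.86% to 8.63% in the other libraries, and the TMM factor of library 4 was 0.655. The sorts differed in markers of immune cells: the 8 leukocyte markers summed to 35.9 to 99.8 CPM in exercised and 21.6 to 48.9 CPM in sedentary cancer cells, and to 241 to 1498 CPM in exercised and 342 to 451 CPM in sedentary TME cells. Of the epithelial markers 3 were tested, and Cdh1, which encodes E-cadherin, was lower in cancer cells (log2 fold change -2.81 ± 0.48, adjusted p = 2.87e-05 in edgeR). Cdh1 averaged 0.456 and 0.561 CPM in exercised and sedentary cancer cells, and 4.28 and 2.9 CPM in exercised and sedentary TME cells. Krt18 averaged 71.0 and 92.7 CPM in exercised and sedentary cancer cells, and 54.6 and 74.0 CPM in exercised and sedentary TME cells. Epcam averaged 1.25 and 1.32 CPM in cancer cells of exercised and sedentary mice, and 1.34 and 1.35 CPM in TME cells of exercised and sedentary mice, and Krt19 averaged at most 0.221 CPM in any group. No pair of libraries held identical counts.

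The summed level of the 70 genes (TMM-scaled CPM) overlapped between all 4 groups. It was 241.5 ± 46.6 CPM in exercised cancer cells (SD, n = 7), 276.1 ± 58.1 CPM in sedentary cancer cells (n = 8), 221.0 ± 19.1 CPM in exercised TME cells (n = 4) and 228.5 ± 26.1 CPM in sedentary TME cells (n = 4). The lowest, median and highest libraries stood at 165.8, 255.9 and 290.8 CPM in exercised cancer cells, and at 212.8, 265.2 and 380.2 CPM in sedentary cancer cells. The TME libraries stood at 203.9, 245.9, 225.6 and 208.5 CPM in exercised mice and at 263.7, 201.1, 228.1 and 221.0 CPM in sedentary mice. The highest values belonged to sedentary cancer libraries 6 and 9, at 380.2 and 339.9 CPM, which were also the highest of all for Hist1h2bc (214.8 and 195.2 CPM) and Hist1h4i (49.4 and 43.2 CPM). In bulk samples, fewer cells that express a gene and less RNA per cell cannot be told apart.

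Without the 3 leading genes the sorts lay further apart in relative terms. The other 67 genes summed to 54.6 ± 12.4 CPM in exercised cancer cells (n = 7) and 54.9 ± 8.28 CPM in sedentary cancer cells (n = 8), against 39.5 ± 5.73 CPM in exercised TME cells (n = 4) and 40.7 ± 9.65 CPM in sedentary TME cells (n = 4). The ranges were 41.8 to 79.8 CPM and 44.2 to 66.0 CPM in cancer cells of exercised and sedentary mice, and 33.6 to 45.7 CPM and 27.4 to 49.8 CPM in TME cells of exercised and sedentary mice, so they overlapped. By type, the sums of H3 genes were 12.1 ± 3.75 and 13.1 ± 3.46 CPM in exercised and sedentary cancer cells, and 7.55 ± 0.860 and 8.22 ± 2.55 CPM in exercised and sedentary TME cells. H1 genes had the opposite order, with 52.7 ± 12.5 and 49.5 ± 4.30 CPM in exercised and sedentary cancer cells, and 65.8 ± 10.7 and 61.0 ± 11.8 CPM in exercised and sedentary TME cells. These sums are given as levels, with no test.

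**Figure D2:**
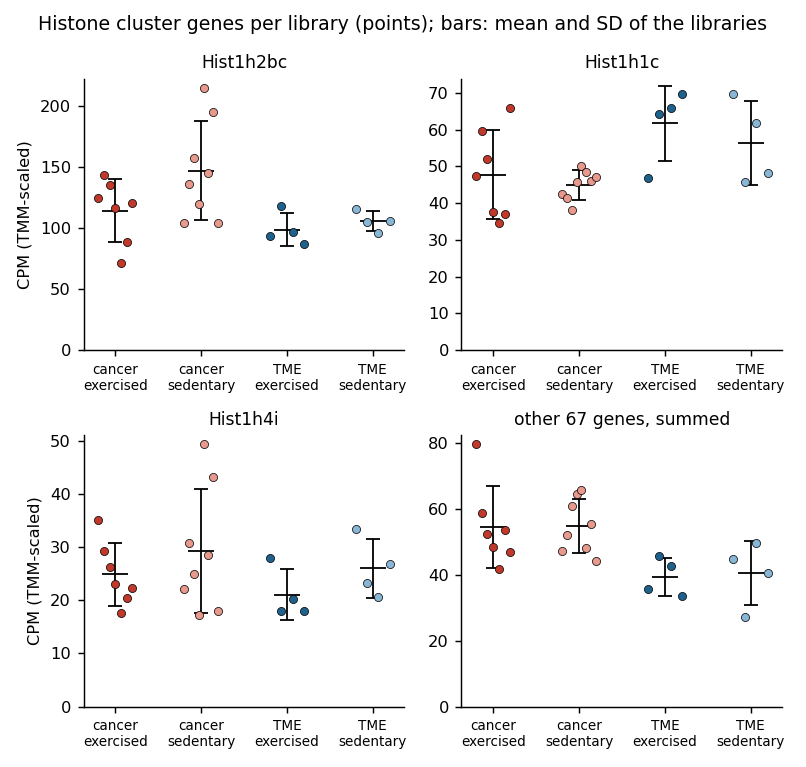
Level in each library (TMM-scaled CPM, vertical axis) of Hist1h2bc, Hist1h1c, Hist1h4i and the sum of the other 67 genes in the 4 groups; bars give the mean and SD. The groups overlap in each panel, and sedentary cancer libraries 6 and 9 reach 214.8 and 195.2 CPM for Hist1h2bc.

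Cancer cells were set against TME cells over both treatments, which asks how the tumour cells differ from the cells around them. Of the 70 genes, 40 passed the filter on low counts. Of these, 11 were higher and 1 was lower in cancer cells at an adjusted p under 0.05 (edgeR quasi-likelihood test, Benjamini-Hochberg adjustment over all genes). The shares, 27.5% higher and 2.5% lower, stand beside 27.3% and 25.3% of the 17503 genes tested, so the share of higher calls was at the background. The median log2 fold change of the 40 genes was 0.47, beside 0.01 over all genes, and 32 of the 40 estimates were above 0, beside 50.6% of all tested genes. In this comparison, as in all below, every adjusted p of a gene comes from edgeR unless another tool is named. No tested histone cluster gene had cancer and TME libraries that did not overlap, against 4.35% of all tested genes that were higher without overlap and 5.19% that were lower.

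The smallest p belonged to the H4 gene Hist1h4j. It had 1.33, 1.86 and 2.69 CPM (lowest, median and highest) in exercised and 1.16, 2.12 and 3.21 CPM in sedentary cancer cells, against 0.958, 0.981, 0.779 and 1.11 CPM in exercised and 1.87, 0.522, 0.950 and 1.03 CPM in sedentary TME cells. Sedentary TME library 4 was the single TME library within the range of the cancer cells. The log2 fold change was 0.97 ± 0.23 (SE), with an adjusted p of 0.000883. Hist1h4k and Hist1h4n also rose in cancer cells, by 1.14 ± 0.37 and 1.57 ± 0.56 on the log2 scale (adjusted p = 0.0109 and 0.0198). Both are low: Hist1h4k averaged 0.603 ± 0.329 and 0.823 ± 0.246 CPM in exercised and sedentary cancer cells, and 0.217 ± 0.053 and 0.493 ± 0.320 CPM in exercised and sedentary TME cells. Hist1h4n averaged 0.593 ± 0.245 and 0.693 ± 0.497 CPM in exercised and sedentary cancer cells, and 0.182 ± 0.170 and 0.247 ± 0.208 CPM in exercised and sedentary TME cells. Just 14.44% of the 50-base windows of Hist1h4n are its own, and 28.52% of those of Hist1h4k.

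Among H3 genes, Hist1h3g rose the most clearly. It had 1.83, 3.02 and 5.60 CPM in exercised and 0.969, 3.68 and 7.87 CPM in sedentary cancer cells, against 1.77, 1.71, 1.64 and 0.976 CPM in exercised and 2.15, 0.281, 1.62 and 1.65 CPM in sedentary TME cells. Sedentary cancer library 10 was the lowest cancer library and lay below 7 of the 8 TME libraries. The log2 fold change was 1.25 ± 0.32 (adjusted p = 0.00155). Hist1h3c and Hist1h3e were called higher as well, with 0.74 ± 0.27 and 1.11 ± 0.43 (adjusted p = 0.0236 and 0.0334). The call of Hist1h3c was lost without exercised TME library 8 or 10 or sedentary TME library 6, with an adjusted p of up to 0.0802. That of Hist1h3e was lost without exercised cancer library 7, sedentary cancer library 4, exercised TME library 7, 8 or 10, or sedentary TME library 4 or 6, with an adjusted p of up to 0.0923.

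The head-to-head pair Hist1h2ac and Hist1h2bc, with the stretch between them printed above, was called higher on both sides. Hist1h2ac had 0.931, 1.36 and 2.66 CPM in exercised and 0.715, 1.24 and 2.46 CPM in sedentary cancer cells, against 0.589, 0.822, 0.701 and 1.02 CPM in exercised and 0.468, 0.602, 1.18 and 0.715 CPM in sedentary TME cells. Cancer cells spread over a wider range than TME cells, and the lower cancer libraries lay among the TME libraries. Its log2 fold change was 0.89 ± 0.28 (adjusted p = 0.00906). Hist1h2bc changed less in relative terms, by 0.35 ± 0.13 (adjusted p = 0.0279). Its values were 71.7, 120.6 and 143.0 CPM in exercised and 103.7, 140.4 and 214.8 CPM in sedentary cancer cells, against 93.2, 117.8, 96.5 and 87.2 CPM in exercised and 115.7, 104.8, 95.8 and 105.4 CPM in sedentary TME cells. Its call was lost without any 1 of exercised TME libraries 7, 9 and 10 and sedentary TME libraries 4, 6, 9 and 10, with an adjusted p of up to 0.119. It was also lost with RLE size factors (adjusted p = 0.0653), without a filter (0.0677), with a minimum mean CPM of 1 (0.0715) and in limma voom (0.130).

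The other H2B genes called higher were Hist1h2bf and Hist1h2bb. Hist1h2bf had 2.85 ± 0.950 and 3.60 ± 2.18 CPM in exercised and sedentary cancer cells, and 1.37 ± 0.592 and 1.86 ± 1.05 CPM in exercised and sedentary TME cells, with a log2 fold change of 0.998 ± 0.324 (adjusted p = 0.0111). Hist1h2bb, which stood 11th by p and so outside the rule for named genes, had 0.78 ± 0.32 (adjusted p = 0.0439), and passed in 9 of the 23 fits that left out 1 library. With RLE size factors it was not called.

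The linker histone genes did not move together. Hist1h1c, which had the most counts of the H1 genes in the clusters, was the only member called lower in cancer cells, by -0.35 ± 0.11 on the log2 scale (adjusted p = 0.00661). It had 34.7, 47.4 and 65.9 CPM in exercised and 38.2, 45.9 and 50.1 CPM in sedentary cancer cells, against 46.9, 64.3, 66.0 and 69.8 CPM in exercised and 69.8, 45.8, 61.8 and 48.3 CPM in sedentary TME cells. Of the 8 TME libraries 5 lay within the range of the cancer cells. As a share of the histone cluster counts of a library, Hist1h1c took 19.8% ± 3.13 and 16.8% ± 3.28 in exercised and sedentary cancer cells (n = 7 and 8), and 28.0% ± 4.48 and 24.5% ± 2.62 in exercised and sedentary TME cells (n = 4 each). Hist1h1b, which encodes the linker histone H1.5, was called higher with 0.93 ± 0.35 (adjusted p = 0.0268), at 0.892 ± 0.286 and 0.705 ± 0.327 CPM in exercised and sedentary cancer cells, and 0.404 ± 0.240 and 0.390 ± 0.237 CPM in exercised and sedentary TME cells. Its call was lost without exercised TME library 7 or 10 or sedentary TME library 4, 6 or 10, with an adjusted p of up to 0.0828. Hist1h1e, which encodes H1.4, had -0.20 ± 0.22 and did not pass (adjusted p = 0.486), and it overlaps Hist1h2be on the same strand. The H4 gene Hist1h4b, at -0.80 ± 0.43, did not pass either (adjusted p = 0.121), and it passed when sedentary cancer library 5 or sedentary TME library 6 was left out, with an adjusted p as low as 0.0457.

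**Figure D3:**
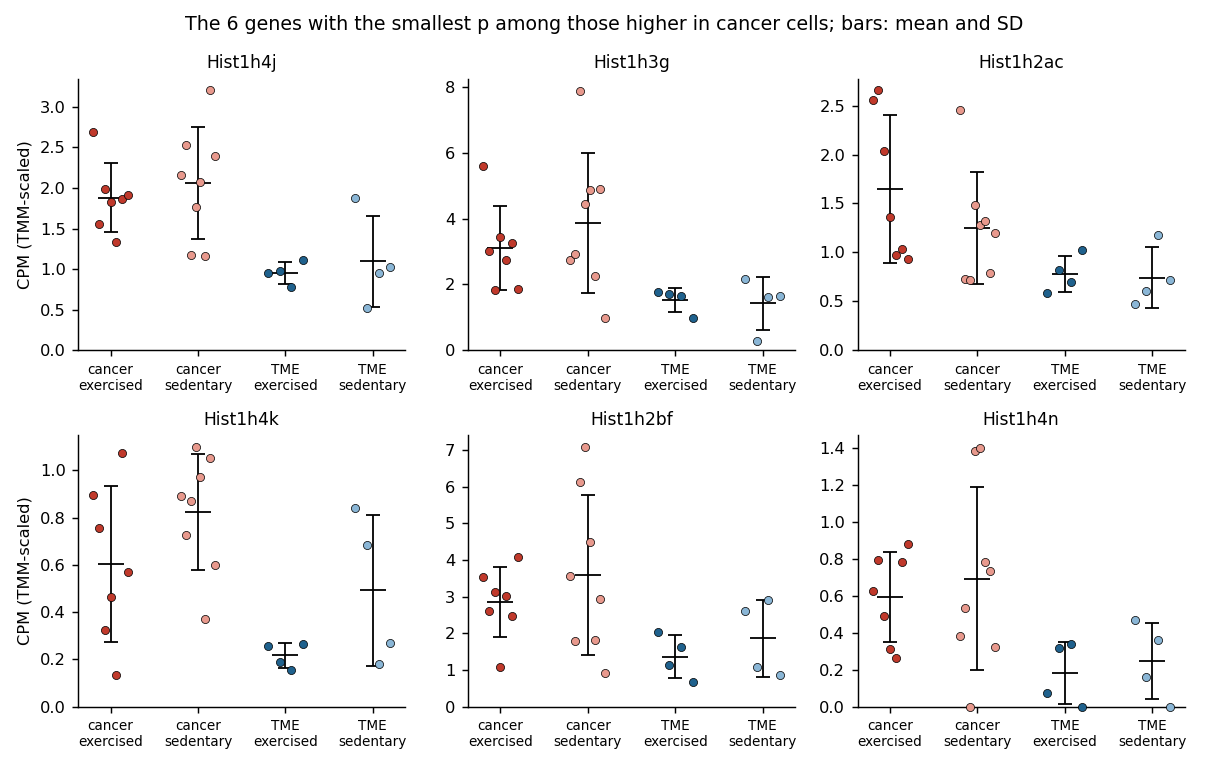
Level in each library (TMM-scaled CPM, vertical axis) of the 6 genes with the smallest p among those higher in cancer cells, in the 4 groups; bars give the mean and SD. For Hist1h4j the lowest cancer library is at 1.16 CPM, and sedentary TME library 4, at 1.87 CPM, is the TME library above it.

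**Figure D4:**
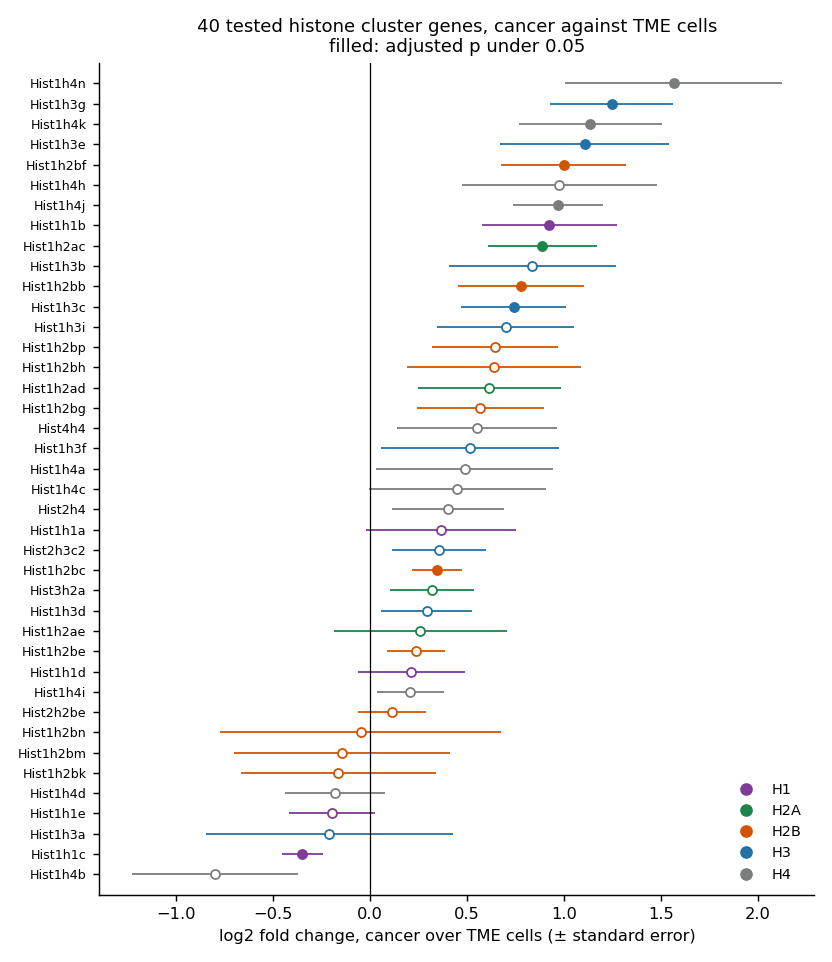
Log2 fold change of cancer over TME cells with its standard error (horizontal axis) for the 40 tested genes, coloured by histone type; filled points have an adjusted p under 0.05. Most estimates lie above 0, from 1.57 for Hist1h4n to -0.80 for Hist1h4b, and Hist1h1c is the one filled point below 0.

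The count of 11 changed with the libraries used. With 1 library left out it ranged from 6 to 12, and was 7 without exercised TME library 7, 6 without exercised TME library 10 and 6 without sedentary TME library 6. Over all genes these fits called 8599 to 9427 in either direction, and the main fit 9201. Without both sedentary TME libraries with a high mitochondrial share, a setting chosen after the data were seen, 4 of 44 tested genes were higher (Hist1h3g, Hist1h4j, Hist1h4k and Hist1h4n) and Hist1h1c was lower. That fit called 8007 genes in all. Within a treatment, 4 of 40 genes (10%) were higher in exercised mice (background 19.5%) and 4 (10%) in sedentary mice (background 21%). None was lower, beside a background of 17.3% in exercised and 19.8% in sedentary mice. Hist1h4j was called in both. In limma voom 8 were higher, 6 of them among the 11, and in DESeq2 the same 11. Over all genes limma voom called 9462 and DESeq2 9328. The calls that limma voom did not make were those of Hist1h1b, Hist1h2bb, Hist1h2bc, Hist1h2bf and Hist1h3e. Without a filter on low counts those of Hist1h1b, Hist1h2bb and Hist1h2bc were lost. The calls of Hist1h4j, Hist1h3g, Hist1h2ac, Hist1h4k, Hist1h2bf, Hist1h4n and Hist1h1c held in all 23 fits that left out 1 library. When same-numbered libraries were blocked within a treatment, a fit that rests on the 7 pairs of cancer and TME libraries that share a number, 3 genes were higher (Hist1h1b, Hist1h2bf and Hist1h3g) and Hist1h1c was lower. In that fit, which called 7360 genes in all, the call was lost for Hist1h4j (adjusted p = 0.0583), Hist1h2ac (0.473), Hist1h4k (0.203), Hist1h4n (0.118), Hist1h3c (0.387), Hist1h2bc (0.159) and Hist1h3e (0.0988). The call of Hist1h2bb was lost there as well. In exercised mice, where libraries of the same number deviated together, the block on 3 pairs left no member called by edgeR, while 3517 genes were called in all. At an unadjusted p under 0.05 there were 4 members, and Hist1h2bc was at -0.11 on the log2 scale (adjusted p = 0.779).

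Genes that act on histone mRNA and chromatin assembly were compared between the sorts in the same fit, in which 27.3% of all tested genes were higher and 25.3% lower in cancer cells. Of 27 genes for the transcription and 3′ processing of histone mRNA, 16 were higher and 5 lower in the cancer sort (median log2 fold change 0.28). They included Npat, the coactivator of histone gene transcription (0.75 ± 0.09, adjusted p = 1.56e-07), Casp8ap2, which is needed for histone mRNA (0.87 ± 0.10, adjusted p = 1.73e-08), and Slbp itself (0.43 ± 0.08, adjusted p = 4.14e-05). Slbp averaged 114.2 ± 11.2 and 120.4 ± 17.4 CPM in exercised and sedentary cancer cells, and 91.5 ± 7.17 and 82.6 ± 13.9 CPM in exercised and sedentary TME cells. Of 25 histone chaperone and deposition genes, 16 were higher and 3 lower, among them Supt16, a subunit of the FACT complex (0.61 ± 0.07, adjusted p = 3.86e-08), and Rbbp7, a histone-binding subunit of several chromatin complexes (0.56 ± 0.07, adjusted p = 5.02e-08). Of 11 tested histone genes outside the clusters, most of which are expressed independently of replication (H2afx also gives a stem-loop mRNA), 3 were higher and 3 lower, such as H2afv, which encodes an H2A.Z variant (-0.46 ± 0.09, adjusted p = 4.25e-05).

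Cell cycle genes were read against the same shares, 27.3% of all tested genes higher and 25.3% lower. Of 30 genes of DNA replication and S phase, 18 were higher and 3 lower in cancer cells, led by Rrm2, a subunit of ribonucleotide reductase (1.03 ± 0.09, adjusted p = 6.33e-10). Among 24 G2/M genes 18 were higher and none was lower, led by Anln, a scaffold protein of cytokinesis (1.09 ± 0.08, adjusted p = 4.33e-11). The mean log2 CPM of the S phase list was 5.52 ± 0.16 and 5.44 ± 0.12 in exercised and sedentary cancer cells, and 5.16 ± 0.19 and 5.17 ± 0.13 in exercised and sedentary TME cells. Their part in the levels of the histone cluster genes was not tested. Of RNAs that lack a poly(A) tail, which mark how much of such RNA a library holds, 3 of 18 in the table passed the filter. Rnu12, the U12 small nuclear RNA, was lower in cancer cells (-1.25 ± 0.34, adjusted p = 0.00270), at 0.612 ± 0.194 and 0.594 ± 0.409 CPM in exercised and sedentary cancer cells, and 1.305 ± 0.341 and 1.62 ± 0.686 CPM in exercised and sedentary TME cells. Scarna2 had -0.89 ± 0.42 and did not pass (adjusted p = 0.0806). Rn7sk averaged 14.3 ± 5.69 and 12.5 ± 5.42 CPM in exercised and sedentary cancer cells, and 8.63 ± 4.56 and 13.0 ± 3.90 CPM in exercised and sedentary TME cells, with a log2 fold change of 0.34 ± 0.27 between the sorts (adjusted p = 0.312). With the level of this list as a covariate, 11 histone cluster genes were higher and 2 lower in cancer cells, and 10 of the 11 were the same genes. Over all genes that fit called 8944. The level is a mean of log2 CPM over all 18 RNAs, most too shallow for the filter, and ran from -2.66 to -2.10. It did not follow their sum: exercised cancer library 10 had 27.4 CPM at -2.39, and sedentary cancer library 6 had 13.8 CPM at -2.10. It is thus a poor measure of such RNA, whose part in the calls was not tested.

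Exercised and sedentary mice were compared within cancer cells, where 33 histone cluster genes were tested. None was called higher or lower, nor was any of the 15096 genes tested by edgeR (0%). At an unadjusted p under 0.05 there were 2 histone cluster genes, beside 12.6% of all tested genes. DESeq2 called 1 member lower, Hist3h2a, and limma voom called none, while over all genes they called 161 and 196. The median log2 fold change of the 33 genes was -0.01, beside -0.01 over all genes, with 16 estimates above 0 and 17 below. Over all tested genes 47.4% of the estimates were above 0. The 8 leukocyte markers all had estimates above 0, none of them called, and summed to 35.9 to 99.8 CPM in exercised and 21.6 to 48.9 CPM in sedentary cancer cells. No member had groups that did not overlap, against 0.298% of all tested genes that were higher without overlap and 0.053% that were lower.

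Hist3h2a, the H2A gene of cluster 3, had the smallest p. It had 0.910, 1.32 and 1.71 CPM (lowest, median and highest) in exercised cancer cells, against 1.49, 2.11 and 4.14 CPM in sedentary cancer cells. The groups overlapped at the edge, and sedentary library 6 was far above the rest. The log2 fold change was -0.86 ± 0.24, with an adjusted p of 0.171 in edgeR and 0.0411 in DESeq2. Over the fits that left out 1 library its edgeR adjusted p ranged from 0.0981 to 0.333. Trim17 overlaps Hist3h2a on the same strand over 32.99% of its exon length, and had 1.47 ± 0.494 CPM in exercised and 1.35 ± 0.447 CPM in sedentary cancer cells, with a log2 fold change of 0.09 ± 0.27 (adjusted p = 0.927).

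Hist1h2bc had 71.7, 120.6 and 143.0 CPM in exercised cancer cells, against 103.7, 140.4 and 214.8 CPM in sedentary cancer cells. The ranges overlapped broadly, and the log2 fold change was -0.40 ± 0.18 (adjusted p = 0.373). Its share of the histone cluster counts was 47.1% ± 3.48 in exercised and 52.6% ± 3.82 in sedentary cancer cells. The other genes with the smallest p were Hist1h4d (0.52 ± 0.32, adjusted p = 0.518), Hist1h2bh (0.52 ± 0.37, adjusted p = 0.600), Hist1h2ac (0.37 ± 0.31, adjusted p = 0.671) and Hist1h4k (-0.47 ± 0.37, adjusted p = 0.627), which did not pass. Hist1h1c, at 0.05 ± 0.12, was the member whose exercise effect in cancer cells was measured with the smallest error.

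In TME cells 29 histone cluster genes were tested and none was called, nor was any of the 16273 genes tested by edgeR (0%). DESeq2 and limma voom called no member either, and over all genes they called 40 and 0. At an unadjusted p under 0.05 there was 1 member, Hist1h2ae, beside 8.44% of all tested genes. The median log2 fold change was -0.09, beside 0.01 over all genes, with 13 estimates above 0, beside 51.3% of all tested genes. Among the types, all 4 tested H2A genes had estimates above 0 and 2 of 8 H2B genes did.

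Hist1h2ae, an H2A gene, had 1.33, 1.27, 0.805 and 0.399 CPM in exercised TME cells, against 0, 0.281, 0.385 and 0 CPM in sedentary TME cells. The groups did not overlap, though the highest sedentary and the lowest exercised library nearly met. Of all tested genes 1.96% were higher in exercised TME cells without overlap. The log2 fold change was 2.27 ± 0.86 (adjusted p = 0.586), so it did not pass, and 2.15 without sedentary libraries 4 and 6 (adjusted p = 0.865). The summed leukocyte markers stood at 241 to 1498 CPM in exercised and 342 to 451 CPM in sedentary TME cells, and all 8 markers had estimates above 0, none of them called. Their part in the level of Hist1h2ae was not tested.

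Its head-to-head partner Hist1h2bg had 1.51, 5.85, 3.95 and 3.06 CPM in exercised TME cells, against 0, 1.25, 3.65 and 1.70 CPM in sedentary TME cells. The groups overlapped, and the log2 fold change of 1.05 ± 0.77 did not pass (adjusted p = 0.680). Hist3h2a had 1.66, 1.68, 1.32 and 2.17 CPM in exercised TME cells, against 0.468, 1.53, 0.899 and 1.34 CPM in sedentary TME cells, with 0.64 ± 0.44 (adjusted p = 0.650). The genes with the smallest p below 0 were Hist1h4i (-0.31 ± 0.20, adjusted p = 0.630), Hist2h2be (-0.47 ± 0.32, adjusted p = 0.646) and Hist1h2bb (-0.80 ± 0.59, adjusted p = 0.680). Hist1h2bc and Hist1h1c, the best counted genes, had -0.11 ± 0.12 and 0.12 ± 0.16 (adjusted p = 0.786 and 0.841).

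**Figure D5:**
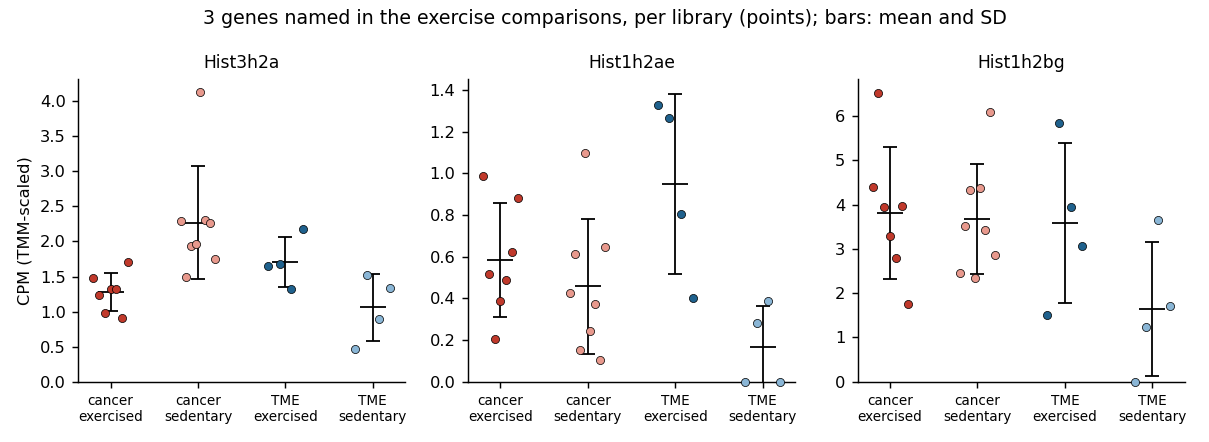
Level in each library (TMM-scaled CPM, vertical axis) of Hist3h2a, Hist1h2ae and Hist1h2bg in the 4 groups; bars give the mean and SD. Hist3h2a is lower in most exercised than sedentary cancer libraries (medians of 1.32 and 2.11 CPM), Hist1h2ae has 0 CPM in 2 sedentary TME libraries, and no exercise effect on show passed the adjusted threshold in edgeR.

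The difference of the exercise effect between cancer and TME cells was tested in all 23 libraries. None of the 40 histone cluster genes was called, and none of the 17503 genes tested (0%). At an unadjusted p under 0.05 there were 2 members, beside 7.52% of all tested genes, and DESeq2 and limma voom called no member. Hist3h2a had a difference of -1.47 ± 0.43 on the log2 scale (adjusted p = 0.522) and Hist1h2ae of -1.94 ± 0.91 (adjusted p = 0.644). Hist1h2bg, at -0.97 ± 0.65 (adjusted p = 0.765), followed below 0. Above 0 came Hist1h3b (1.51 ± 0.84, adjusted p = 0.704), Hist2h2be (0.59 ± 0.35, adjusted p = 0.728) and Hist1h2be (0.50 ± 0.30, adjusted p = 0.739).

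None of the genes for histone mRNA processing, chaperones, replication-independent histones, S phase, or G2 and M phase was called for exercise in either sort by edgeR. Slbp had -0.11 ± 0.09 in cancer cells (adjusted p = 0.625) and 0.13 ± 0.13 in TME cells (adjusted p = 0.766). Of the 24 genes of G2 and M phase, 21 had estimates above 0 in exercised cancer cells, with a median of 0.20, and Hmmr had the smallest p (0.48 ± 0.10, adjusted p = 0.0804). The S phase list had 20 of 30 estimates above 0 with a median of 0.05, while the histone cluster genes had 16 of 33 with a median of -0.01. Of all genes tested in cancer cells, 47.4% had estimates above 0.

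The testis histone genes were at or near 0. Hist1h2aa, which encodes a testis H2A, had no count, and Hist1h1t and Hist1h2ba, which encode a testis H1 and H2B, had 45 and 53 counts in all libraries together. Hist1h1t averaged 0.066 ± 0.062 and 0.112 ± 0.133 CPM in exercised and sedentary cancer cells, and 0.104 ± 0.127 and 0.026 ± 0.051 CPM in exercised and sedentary TME cells. Its annotated sequence is 100% unique in 50-base windows, so these counts are not shared with another annotated copy at that length. No difference was tested for these genes, since none passed the filter on low counts.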

How the data were processed

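The values are unnormalized counts per gene symbol in 23 libraries, as the authors deposited them. The tools named per the submitters' processing notes are STAR and featureCounts, with the build mm10. The sources used here do not give their versions, the annotation release, the strand setting or the handling of multiply mapped reads, so overlapping genes and near-identical copies may share or lose reads. All 23 columns were used.

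From these counts, edgeR 4.0.16 in R 4.3.3 was run with filterByExpr, TMM scaling and the robust quasi-likelihood test, two-sided, with Benjamini-Hochberg adjustment over all genes and a threshold of 0.05. The exercise effect was fitted within each sort, and cancer against TME cells and the difference of effects on all libraries in 4 groups. Levels are TMM-scaled CPM, and per kb use the union of exons in GENCODE M21, since no annotation release is stated. Total counts limit the precision, and the limit of 3 counts covers counting error only. A window counts as unique if its 50 bases occur in the annotated transcripts of no other gene.

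Named genes are up to 10 members per direction past the threshold in a comparison, or the 3 with the smallest p where fewer than 3 passed, the 10 highest per kb, the highest of each type, the testis genes, and up to 4 genes of each list. Slbp was added to these. The members, lists and tests were chosen with earlier results of these data known. Alternatives were RLE size factors, other filters, DESeq2 1.42.0, limma 3.58.1 voom with quality weights, a joint fit of all libraries, the block on replicate number, a covariate (the level of RNAs without a poly(A) tail), and each library left out. Deviations of same-numbered cancer and TME libraries from their group means correlated at 0.144 to 0.243 in the 3 pairs of exercised mice. In the 4 pairs of sedentary mice they correlated at -0.06 to 0.05. The main fits paired no libraries, so their p-values leave out any such pairing. The replicate block used the numbers in both treatments, and a fit added after the data were seen used them in exercised mice only. The pairing comes from the data, not from the labels. The fits were also run on simulated counts, with no pairing of libraries and changes set only in genes with a mean CPM of at least 1. Those runs do not test the calls of shallower members or the effect of pairing. Stem-loops and promoter motifs were searched by their letters with Python 3.11.15.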

Additional observations from a re-analysis of the deposited data

Results flagged for a closer look

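Among 116 sets of values, a gene or the summed level in 1 group of 4, 7 or 8 libraries, 9 held a library that stood apart by Dixon's rule. For normally distributed values chance marks about 1 set in 20 under this rule, a rate that need not hold for shallow counts. The sets of Hist1h2aa, with no count, could not be marked. In exercised cancer cells, library 1 had 5.60 CPM of Hist1h3g, and the next had 3.45. In sedentary cancer cells, library 2 had 2.46 CPM of Hist1h2ac (the next had 1.48), library 3 had 0.268 CPM of Hist1h2ba (the next had 0.102), and library 6 had 4.14 CPM of Hist1h2ad (the next had 2.25). Library 6 also had 4.14 CPM of Hist3h2a, where the next had 2.31. In exercised TME cells, library 9 had 0.364 CPM of Hist1h3b (the next had 0.158), and library 10 was low for Hist1h3g at 0.976 CPM and for Hist1h3i at 0.222 CPM, with the next at 1.64 and 0.589. In sedentary TME cells, library 9 was the only one with counts of Hist1h1t, at 0.103 CPM. No summed level was marked.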

How the results depend on the processing

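Of the values of named genes under the alternatives, 779 kept their direction and side of the threshold, 70 lost a call, 4 gained one and 1 changed sign. The 779 include values called in neither fit, as in the exercise comparisons, where the main fit called no member. Every lost call was one in cancer against TME cells. The change of sign was that of Hist1h2bc in cancer against TME cells, at -0.11 in exercised mice only with the replicate block, where 0 members were higher and 0 lower. The cause was not tested, and this alternative was added after the data were seen. In cancer against TME cells, 5 histone cluster genes were higher at a minimum mean CPM of 1, which tests 20 of them and called 8071 genes in all. There were 4 each in exercised and sedentary mice only, where none was lower (0). With 1 library left out, 6 to 12 were higher and 1 to 2 lower, and 4 were higher without both sedentary TME libraries with a high mitochondrial share, likewise added. With the level of RNAs without a poly(A) tail as a covariate, 2 were lower. With the replicate number as a block, 3 were higher (Hist1h1b, Hist1h2bf and Hist1h3g). Between treatments, same-numbered libraries correlated at -0.066 to 0.093 in cancer cells and at 0.01 and 0.235 in TME cells. Outside the replicate block they were not taken as pairs. The value of 0.235 lies within the 0.144 to 0.243 of the cancer and TME pairs of exercised mice. Under the block the counts of histone cluster genes called for exercise remained 0. In cancer cells DESeq2 called 1 member lower with exercise, and edgeR called 0 with each library left out in every exercise comparison, the difference of effects included.

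The summed level fell to 127.2, 129.1, 122.3 and 123.1 CPM in exercised and sedentary cancer cells and in exercised and sedentary TME cells without Hist1h2bc. With mitochondrial transcripts out of the total it was 243.3 and 256.7 CPM in exercised and sedentary TME cells. Depth limits most members, since 34 of 70 had a mean count of at least 10 per library.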
